A study of Mus musculus with 13 samples.

Results

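The genes described here are 10 members of the Notch and ephrin pathways that set arterial and venous identity in blood vessels. They are the ephrin ligand Efnb2, its receptor Ephb4, the Notch ligands Dll4, Jag1 and Jag2, the receptors Notch1 and Notch4, and the Notch target genes Hey1, Hey2 and Heyl. Their Ensembl identifiers are ENSMUSG00000001300.17 (Efnb2, chromosome 8), ENSMUSG00000029710.16 (Ephb4, 5), ENSMUSG00000027314.7 (Dll4, 2), ENSMUSG00000027276.8 (Jag1, 2), ENSMUSG00000002799.7 (Jag2, 12), ENSMUSG00000026923.16 (Notch1, 2), ENSMUSG00000015468.15 (Notch4, 17), ENSMUSG00000040289.9 (Hey1, 3), ENSMUSG00000019789.10 (Hey2, 10) and ENSMUSG00000032744.5 (Heyl, 4). The members were chosen by name, with earlier results of these data known. Each is a row of the count table whose Ensembl identifier maps to one of these mouse symbols. All 10 were found among the 55357 genes of the table, and all 10 passed the filter on low counts that left 22876 genes for testing. RNA came from lymphedematous tails of 12-week-old mice at day 28 after TNT, taken here to be tissue nanotransfection, which drives nucleic acids into skin by a brief electric field. The groups were TNTProx1, with 6 samples, and TNTSham, with 7 samples. The first is named for Prox1, the transcription factor of lymphatic endothelial identity. The sources used here do not say what was delivered in either group, under which promoter, or into which strain and sex. They also do not say whether each sample is its own mouse, so p-values measure the spread between these samples, which may be technical.

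In Notch signalling a ligand on one cell binds a receptor on its neighbour, the receptor is cleaved, and its intracellular part enters the nucleus. There it joins the DNA-binding protein RBPJ and switches on target genes such as the Hey family of transcriptional repressors. In arteries, Dll4 and the Notch receptors act upstream of Efnb2, the membrane ligand ephrin-B2, whereas its receptor Ephb4 is concentrated on veins and is also made by lymphatic vessels, where the pair is needed for valves and remodelling. Skin also uses several of these genes outside vessels: Notch1, Jag1 and Jag2 act in the epidermis, and Jag1 and Heyl in the smooth muscle of vessel walls.

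Library totals ranged from 34970304 to 48007392 counts in TNTProx1 and from 29691929 to 47868919 counts in TNTSham. The number after a group name only tells its samples apart. TNTProx1 4, 5 and 6 stood apart from the other 10 libraries on the first principal component, with scores of 35.7 to 117 against -30.8 to -7.61. This component, taken over the 1000 genes of highest variance, carried 69.6% of it, and no TNTSham library fell beside these 3. Fold changes of the members and medians of the gene lists are therefore given also for the 10 libraries without them. Prox1 ranged from 18.7 to 72.9 CPM in TNTProx1 and from 23.4 to 33.1 CPM in TNTSham (CPM, the count relative to library size after TMM scaling, which takes a trimmed mean of log ratios between libraries), so the groups overlapped in the gene named in the label. TNTProx1 1 and 2, at 42.8 and 72.9 CPM, exceeded every TNTSham library, while TNTProx1 4 to 6 averaged 26.6 CPM. The log2 fold change of Prox1 was 0.41 ± 0.23 (SE; adjusted p = 0.506 in edgeR) with 13 libraries and 0.78 ± 0.20 (SE; adjusted p = 0.0747 in edgeR) with 10. Markers defining endothelium were present in every library: Pecam1, an endothelial adhesion molecule, ranged from 155 to 215 CPM in TNTProx1 and from 94.6 to 183 CPM in TNTSham.

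Dll4, Notch4, Heyl and Hey1 stood higher in TNTProx1 than in TNTSham at log2 fold changes of 0.69 to 0.96, and Ephb4 at 0.39. In bulk tissue more cells of a type and more RNA per cell cannot be told apart, and the levels of 14 pan-endothelial genes, summed, were 789 to 1050 CPM in TNTProx1 and 462 to 826 CPM in TNTSham. Of the 10 genes 7 had a log2 fold change above 0, as did 47.7% of all genes tested. Efnb2, Notch1, Jag2 and Hey2 lay between -0.10 and 0.20, and Jag1 stood lower at -0.35. No member passed the edgeR quasi-likelihood test over all genes at an adjusted p under 0.05. That test called 0 of 22876 genes, which is a background of 0%. At an unadjusted p under 0.05, 6 of the 10 members were counted, 5 higher and 1 lower, beside 12.2% of all genes tested, 8.33% higher and 3.92% lower. Not one member separated the groups fully, beside 0.398% of all genes with every TNTProx1 library above every TNTSham library and 0.214% with every one below. With the 10 libraries 4 members, Dll4, Notch4, Hey1 and Heyl, had an unadjusted p under 0.05, beside 21.4% of all genes. Other tools gave calls: DESeq2 called Hey1, Heyl and Ephb4 (adjusted p = 0.00515, 0.0202 and 0.0286), all higher, where it called 2.85% of genes, 2.08% higher. The limma voom fit with sample quality weights called Dll4, Heyl and Notch4 (adjusted p = 0.0433, 0.034 and 0.0354), all higher, where it called 2.5% of genes, 1.86% higher. Heyl was thus the member called by both. The median log2 fold change of the 10 members was 0.30, beside -0.017 over all genes tested. Since the members were chosen with earlier results known, these counts and this median describe them and do not test the set.

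**Figure D1:**
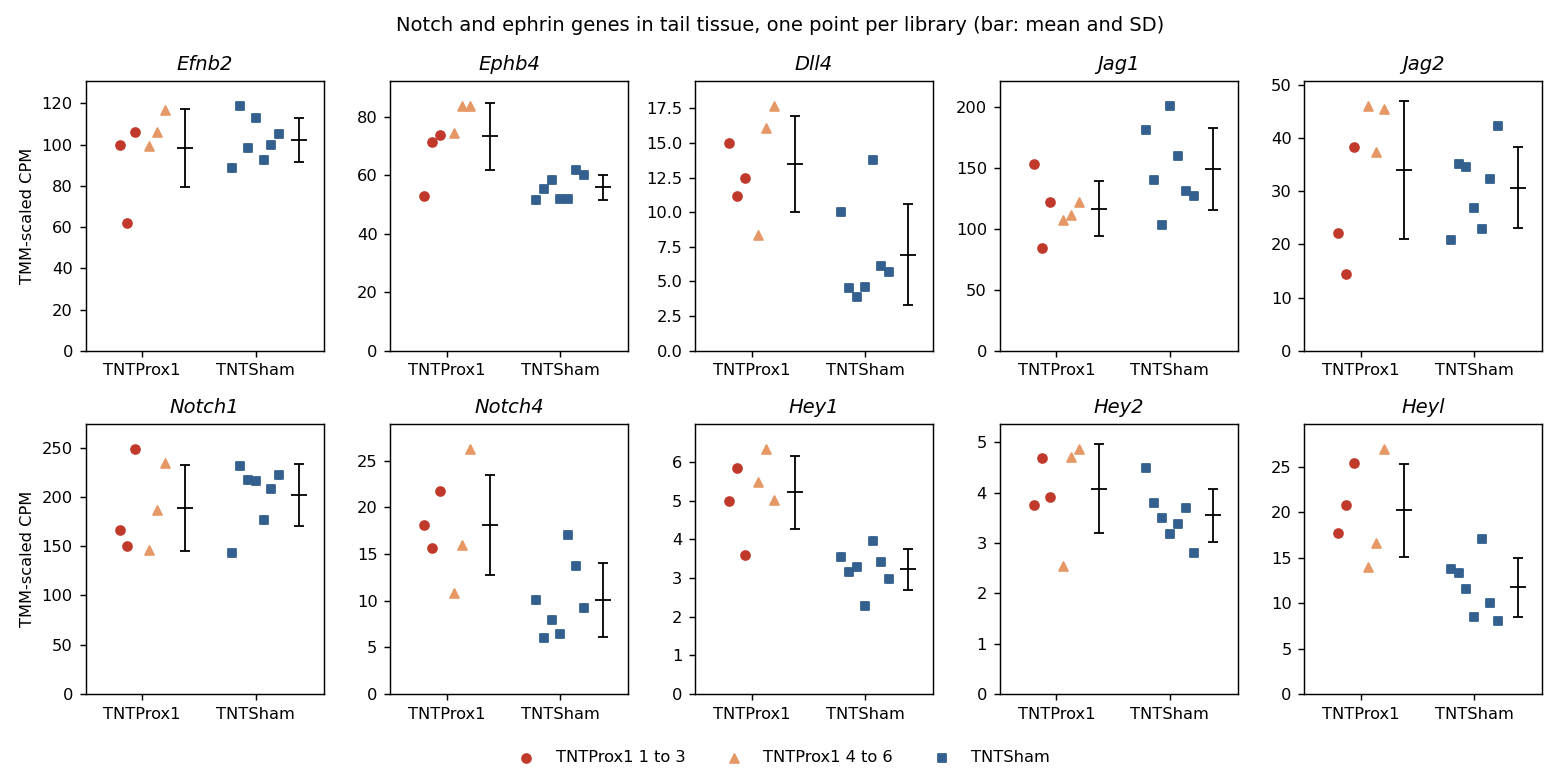
TMM-scaled CPM (vertical axis, linear) of each of the 10 genes in the 6 TNTProx1 and 7 TNTSham libraries, one point per library, with mean and SD at the right of each group. Triangles are TNTProx1 4 to 6. Ephb4 and Hey1 had 5 of 6 TNTProx1 libraries above all TNTSham libraries, while the groups of Efnb2 and Notch1 lay over each other.

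The order of levels can be compared between genes only per length, as CPM per kilobase of exon. On that scale Jag1 was highest in both groups, ranging from 14.4 to 26.3 in TNTProx1 and from 17.6 to 34.5 in TNTSham. In TNTProx1 it was followed by Ephb4 at 15.8 ± 2.45 (SD, n = 6), Efnb2 at 14.3 ± 2.75 and Notch1 at 13.3 ± 3.09. In TNTSham the same 3 genes stood in the order Efnb2, Notch1, Ephb4, at 14.9 ± 1.58, 14.2 ± 2.18 and 12.0 ± 0.934 (SD, n = 7). Jag1 overlapped the next gene, Ephb4, in TNTProx1. In TNTSham its lowest library, at 17.6, lay just above the highest of the next gene, Efnb2, at 17.4. The library ranges of the other 3 overlapped from each to the next within both groups, so their order does not go beyond the spread. No overlap joined these 4 to the others, which ran in the same order in both groups: Jag2, Heyl, Dll4, Notch4, Hey1 and Hey2. Among these 6 the ranges of neighbours also overlapped, except between Hey1 and Hey2 in TNTProx1. The lowest, Hey2, had 0.888 ± 0.191 CPM per kilobase in TNTProx1 and 0.772 ± 0.116 in TNTSham. Even so, its raw counts were 88 to 207 per library, and those of Hey1, the next lowest, were 78 to 262.

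Ephb4 stood higher in TNTProx1 while its ligand Efnb2 did not. Efnb2 had a lowest, median and highest level of 62.1, 103 and 117 CPM in TNTProx1, against 88.6, 99.9 and 119 CPM in TNTSham. The groups overlapped, 5 of 6 TNTProx1 libraries lay within the TNTSham range, and TNTProx1 2 alone lay below it. Ephb4 had 52.9, 74.0 and 83.9 CPM in TNTProx1, against 51.5, 55.2 and 61.9 CPM in TNTSham. Here 5 of 6 TNTProx1 libraries lay above the highest TNTSham library, and TNTProx1 1, at 52.9 CPM, was inside the range. The log2 fold change of Efnb2 was -0.06 ± 0.13 (SE; adjusted p = 0.874 in edgeR), with a 95% interval of -0.33 to 0.21. That of Ephb4 was 0.39 ± 0.10 (SE; adjusted p = 0.134 in edgeR), with an interval of 0.17 to 0.62. Without TNTProx1 1 the value of Ephb4 was 0.47 and edgeR called it (adjusted p = 0.0137), in a fit that called 2.55% of genes, 2.07% higher. With the 10 libraries it was 0.24 ± 0.11 (SE; adjusted p = 0.238 in edgeR), since TNTProx1 4 to 6, at 74.4 to 83.9 CPM, held the highest values.

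Setting the ligand over the receptor within each library removes the scaling between libraries. Efnb2 over Ephb4 was 1.89, 0.871, 1.43, 1.34, 1.26 and 1.39 in TNTProx1 1 to 6. In TNTSham 1 to 7 the ratio was 1.72, 2.16, 1.68, 2.18, 1.78, 1.61 and 1.75. All but TNTProx1 1 lay below the lowest TNTSham library. Exon lengths differ, at 6.86 kb for Efnb2 and 4.64 kb for Ephb4, so these ratios do not tell which gene stood higher within a library. The mean log2 ratio was 0.41 ± 0.36 in TNTProx1 (SD, n = 6) and 0.87 ± 0.17 in TNTSham (SD, n = 7). Their difference of -0.46 had p = 0.00699 in an exact two-sided permutation test over the 1716 ways to draw 6 of 13 libraries. This was the only ratio tested, and the higher level of Ephb4 in these libraries was known when it was chosen. With the 10 libraries the difference was also -0.46 but had an exact permutation p of 0.1, where 0.0167 is the smallest p that 3 against 7 allows. Without TNTProx1 2, the library of lowest ratio, it was -0.34 (exact permutation p = 0.0152).

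**Figure D2:**
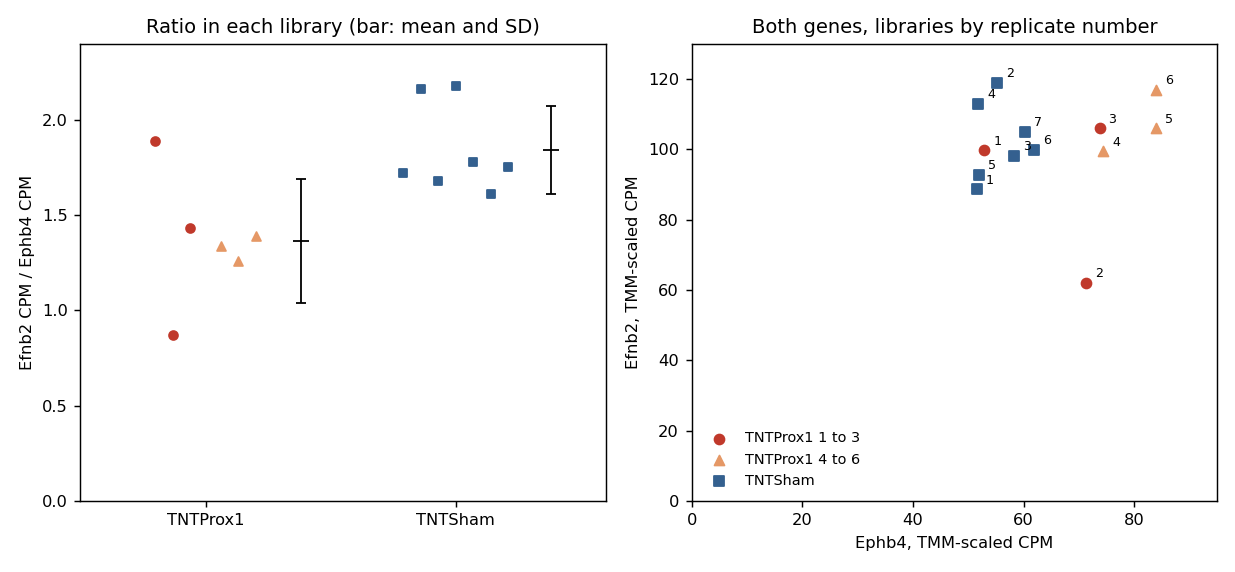
Left: Efnb2 CPM over Ephb4 CPM in each library (linear axis), with mean and SD beside each group; 5 of 6 TNTProx1 libraries, at 0.871 to 1.43, lie below all TNTSham libraries, at 1.61 to 2.18. Right: Efnb2 (vertical) against Ephb4 (horizontal) in TMM-scaled CPM, libraries marked by replicate number; TNTProx1 libraries other than 1 lie to the right of all TNTSham libraries, and TNTProx1 2 lies lowest.

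TNTProx1 2 also stood apart in epidermal RNA. Its 12 keratinocyte markers summed to 5760 CPM, the lowest of all libraries, where the whole range was 5760 to 55000 CPM in TNTProx1 and 26200 to 40400 CPM in TNTSham. All 12 markers were detected in every library, and 0 passed the test. By point estimate 1 was higher and 11 lower in TNTProx1, beside 47.7% of all genes tested that were higher. Jag1 and Jag2 had their lowest level in TNTProx1 2 as well. With a keratinocyte score as a covariate the log2 fold change of Efnb2 was 0.06 ± 0.09 (SE), and without TNTProx1 2 it was 0.04 ± 0.09 (SE). In both fits its sign turned but its size stayed near 0. The score was -2.797 in TNTProx1 2 and -0.381 to 0.7281 in the other libraries, so the covariate rests largely on TNTProx1 2. Ephb4 kept 0.40 ± 0.11 (SE) with that covariate, and 5 members had an unadjusted p under 0.05, beside 17.1% of all genes. In the same fit Dll4, Notch4, Heyl and Hey1 stood at 1.08, 0.90, 0.81 and 0.68, close to their values without it, and Jag1 at -0.25 ± 0.15 (SE), where its unadjusted p was no longer under 0.05.

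Among the Notch ligands, Dll4 and the jagged genes did not stand alike. Dll4, the ligand of arterial and sprouting endothelium, had 8.33, 13.8 and 17.7 CPM as lowest, median and highest in TNTProx1, against 3.89, 5.67 and 13.8 CPM in TNTSham. Only 3 of 6 TNTProx1 libraries exceeded every TNTSham library, because TNTSham 5 stood at 13.8 CPM. Both TNTSham 5 and TNTSham 1 stood well above the other 5, which lay at 3.89 to 6.09 CPM. The log2 fold change of Dll4, the largest of the 10, was 0.96 ± 0.29 (SE; adjusted p = 0.179 in edgeR), with a 95% interval of 0.34 to 1.58. With the 10 libraries it was 0.89 ± 0.34 (SE), and without TNTSham 5 it was 1.22. Jag1, a ligand shared by epidermis, endothelium and vessel wall, had 83.9, 116 and 153 CPM in TNTProx1 and 103, 140 and 201 CPM in TNTSham. The groups overlapped broadly. Its log2 fold change of -0.35 ± 0.16 (SE; adjusted p = 0.396 in edgeR) had an interval of -0.70 to -0.01. Jag2, a ligand of epidermis and endothelium, had 14.4, 37.8 and 46.1 CPM in TNTProx1 and 20.8, 32.3 and 42.3 CPM in TNTSham. Within TNTProx1 it was 14.4 to 38.3 CPM in TNTProx1 1 to 3 and 37.3 to 46.1 CPM in TNTProx1 4 to 6, ranges that overlap. Its log2 fold change was 0.15 ± 0.25 (SE) with 13 libraries and -0.30 ± 0.28 (SE) with 10.

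The receptors differed as well. Notch4, a receptor largely restricted to endothelium, had 10.8, 17.0 and 26.3 CPM as lowest, median and highest in TNTProx1, against 6.03, 9.26 and 17.0 CPM in TNTSham. TNTSham 5 was again the highest of its group and reached the TNTProx1 median, while TNTProx1 4 was the lowest of its own. TNTProx1 over TNTSham stood at 0.85 ± 0.25 (SE; adjusted p = 0.173 in edgeR), with a 95% interval of 0.31 to 1.39 on the log2 scale, and at 0.88 ± 0.28 (SE) with the 10 libraries. Notch1, the receptor of keratinocytes as well as endothelium, had 146, 177 and 249 CPM in TNTProx1, against 143, 216 and 231 CPM in TNTSham. The highest and the lowest of all 13 libraries, TNTProx1 3 and TNTSham 1, were in different groups, and the log2 fold change was -0.10 ± 0.15 (SE; adjusted p = 0.822 in edgeR) with an interval of -0.42 to 0.22. That interval holds 0, which does not show that the levels were equal.

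Of the 3 Hey target genes, Hey1 and Heyl stood higher in TNTProx1, and the interval of Hey2 included 0. Heyl had 14, 19.2 and 27.0 CPM in TNTProx1, against 8.02, 11.6 and 17.1 CPM in TNTSham, with 4 of 6 TNTProx1 libraries above the TNTSham range. Its log2 fold change was 0.78 ± 0.20 (SE; adjusted p = 0.129 in edgeR) with 13 libraries and 0.85 ± 0.21 (SE; adjusted p = 0.0728 in edgeR) with 10. Hey1 had 3.60, 5.24 and 6.34 CPM in TNTProx1, against 2.28, 3.27 and 3.95 CPM in TNTSham. Only TNTProx1 3, at 3.60 CPM, lay inside the TNTSham range. The log2 fold change of Hey1 was 0.69 ± 0.18 (SE; adjusted p = 0.129 in edgeR), and 0.58 ± 0.20 (SE) with the 10 libraries. Hey2 is a family member tied to the arterial programme in zebrafish and mouse. It had 2.54, 4.30 and 4.87 CPM in TNTProx1, against 2.80, 3.50 and 4.49 CPM in TNTSham. Its TNTProx1 libraries fell below, within and above the TNTSham range, in 1, 2 and 3 cases. Its log2 fold change was 0.20 ± 0.19 (SE; adjusted p = 0.696 in edgeR), with an interval of -0.19 to 0.60.

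**Figure D3:**
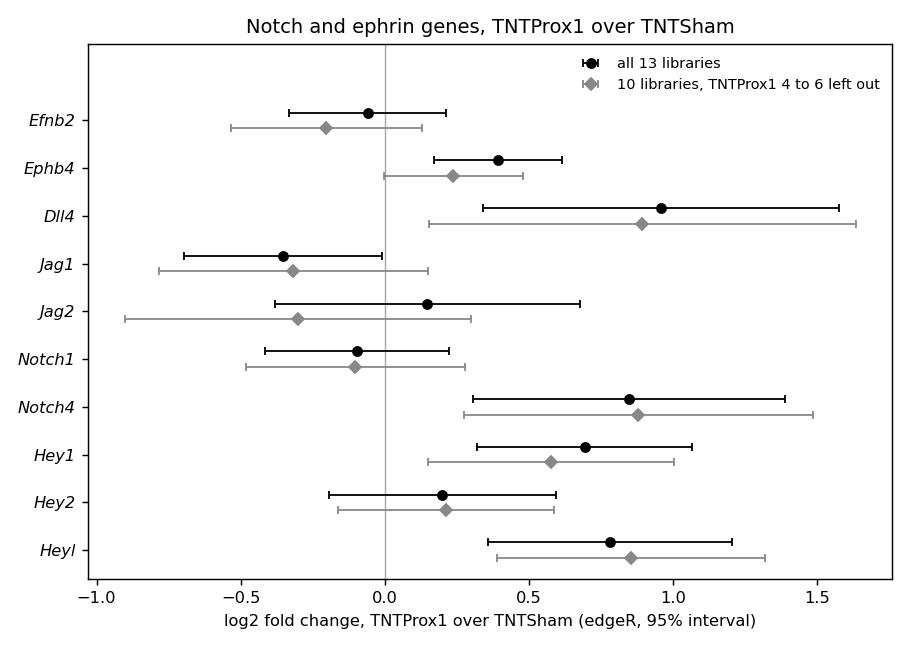
Log2 fold change of each gene, TNTProx1 over TNTSham, with 95% intervals from edgeR, for all 13 libraries (black circles) and for the 10 libraries without TNTProx1 4 to 6 (grey diamonds). Intervals of Dll4, Notch4, Hey1 and Heyl lie above 0 in both fits, that of Ephb4 in the first only, and no gene passed after adjustment over all genes.

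Promoters of 3 genes are printed because they set the direct Notch target Hey2, whose difference was small, beside Dll4 and Notch4, which stood higher. Each runs from 250 bases before the start site to 50 after it, 5′ to 3′ on the gene's strand, from RefSeq on GRCm38.p6, where 8 of the 10 members had an entry. Capitals mark TGGGAA or its complement TTCCCA, the core letters bound by RBPJ. Hey2 lies at chr10:30842734-30843033 (minus strand), Dll4 at chr2:119325534-119325833 (plus strand) and Notch4 at chr17:34564045-34564344 (plus strand).
Hey2: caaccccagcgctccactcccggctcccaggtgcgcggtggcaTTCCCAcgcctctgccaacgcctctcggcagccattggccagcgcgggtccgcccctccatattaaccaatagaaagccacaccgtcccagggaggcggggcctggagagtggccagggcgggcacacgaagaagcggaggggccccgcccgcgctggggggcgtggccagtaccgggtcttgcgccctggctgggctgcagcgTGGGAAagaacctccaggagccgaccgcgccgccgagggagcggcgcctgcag
Dll4: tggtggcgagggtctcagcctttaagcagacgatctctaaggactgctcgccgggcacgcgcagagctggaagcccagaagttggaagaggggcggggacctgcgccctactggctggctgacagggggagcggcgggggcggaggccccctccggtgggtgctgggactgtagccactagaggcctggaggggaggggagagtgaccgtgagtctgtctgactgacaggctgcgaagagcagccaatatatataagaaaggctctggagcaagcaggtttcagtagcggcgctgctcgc
Notch4: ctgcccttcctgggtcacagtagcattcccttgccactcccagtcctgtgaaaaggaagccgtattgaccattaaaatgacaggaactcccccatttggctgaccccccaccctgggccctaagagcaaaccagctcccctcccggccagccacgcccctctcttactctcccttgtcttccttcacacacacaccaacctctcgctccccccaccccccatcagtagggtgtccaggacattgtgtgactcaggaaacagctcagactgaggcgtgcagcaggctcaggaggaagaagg

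The other Hey genes, Hey1 and Heyl, had no promoter entry and were not searched. Hey2 was the only one of the 8 members with an entry to hold TGGGAA on either strand, which 25.6% of 32851 promoters of this length hold. It held the core at 2 places, beginning 207 bases before the start site on the opposite strand and 3 bases before it on the gene's own strand. Both belong to the longer GTGGGAA, which contains the core and occurs in 6.4% of promoters once or more and in 0.256% at least 2 times. The E-box CACGTG, letters that Hey proteins can bind, was in 0 of the 8 windows and in 7.2% of all promoters, both strands searched. These matches describe letters in a short window and say nothing of whether RBPJ was bound.

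**Figure D4:**
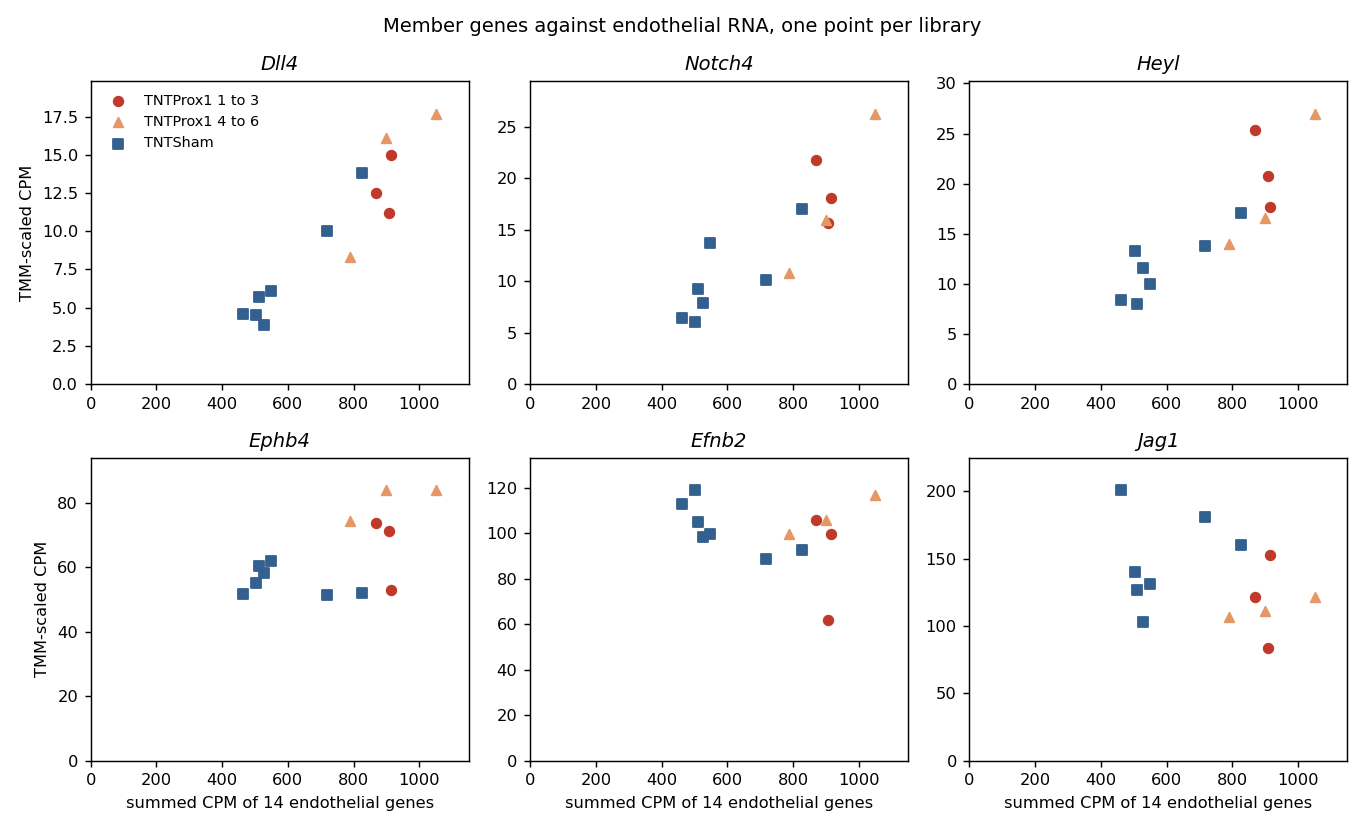
TMM-scaled CPM of 6 genes (vertical, linear) against the summed CPM of 14 pan-endothelial genes (horizontal, linear), one point per library. TNTSham 1 and 5, at 718 and 826 summed CPM, have the highest Dll4 and Heyl of their group. For Notch4 TNTSham 6, at 13.7 CPM, lies above TNTSham 1, at 10.1 CPM. For Ephb4 both lie at its low end, at 51.5 and 52.0 CPM. TNTSham 4, of the lowest sum at 462 CPM, lies there too, at 51.8 CPM.

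Summed endothelial RNA lay above the TNTSham range in 5 of 6 TNTProx1 libraries, and the members differed in how they stood beside it. Of the pan-endothelial genes 14 of 14 had a log2 fold change above 0, with a median of 0.55. In edgeR 0 passed over all genes and 12 had an unadjusted p under 0.05. Of all genes tested, 47.7% lay above 0 and 8.33% stood higher at that unadjusted p. Cdh5, the adhesion protein VE-cadherin, stood at 0.83 ± 0.23 (SE; adjusted p = 0.156 in edgeR) and Pecam1 at 0.56 ± 0.17 (SE; adjusted p = 0.179 in edgeR). TNTSham 5 and TNTSham 1 had the highest endothelial sums of their group, at 826 and 718 CPM against 462 to 548 CPM in the other 5. Within TNTSham the same 2 libraries were highest in Dll4, Heyl and Hey1, but not in the other members. In Notch4 TNTSham 6, at 13.7 CPM, stood above TNTSham 1, at 10.1 CPM. In Hey2 TNTSham 2, at 3.79 CPM, stood above TNTSham 5, at 3.37 CPM.

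As a share of the summed endothelial CPM, Dll4 was 1.48 ± 0.285% in TNTProx1 (SD, n = 6) and 1.13 ± 0.312% in TNTSham (SD, n = 7). Notch4 was 1.98 ± 0.452% and 1.70 ± 0.456% in the same 2 groups, Heyl 2.22 ± 0.456% and 2.01 ± 0.343%, and Hey1 0.580 ± 0.120% and 0.558 ± 0.0679%. The shares of Notch4, Heyl and Hey1 differed by less than the SD of either group, and that of Dll4 by slightly more. Efnb2, in contrast, had a share of 10.9 ± 2.09% in TNTProx1 and 18.5 ± 5.12% in TNTSham, and Notch1 of 20.8 ± 4.36% and 36.7 ± 11.3%. The share of Jag1 was 9.25 to 16.8% in TNTProx1 and 19.4 to 43.5% in TNTSham, with no overlap. Of all genes tested, 8.94% had shares in TNTProx1 below every TNTSham library, and 0.00437% above; the denominator was itself higher in TNTProx1. Ephb4 had 8.14 ± 1.33% in TNTProx1 and 9.97 ± 2.24% in TNTSham.

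A fit with the pan-endothelial score as a covariate, tested and adjusted over all genes, gave another division. The log2 fold changes of Dll4 and Notch4 were -0.18 ± 0.31 and -0.11 ± 0.34 (SE), so their sign turned, and that of Heyl was 0.00 ± 0.26 (SE). Hey1 stood at 0.35 ± 0.30 (SE), against 0.69 without the covariate, and Hey2 at -0.22 ± 0.34 (SE). Jag2 had the largest value of the 10 in this fit, 0.72 ± 0.43 (SE), against 0.15 without it, with an interval of -0.21 to 1.65. Efnb2, Notch1 and Jag1 stood at 0.22 ± 0.22, 0.12 ± 0.28 and -0.32 ± 0.28 (SE). Ephb4 stood at 0.41 ± 0.20 (SE), the size it had without the covariate, with an interval of -0.02 to 0.83. Not one member had an unadjusted p under 0.05 in that fit, beside 2.12% of all genes. The SE of every member was larger than without the covariate. The score was 0.168 to 1.11 in TNTProx1 and -1.33 to 0.377 in TNTSham, so it went largely with the group. Group and score are thus poorly separated in this fit, and the turned signs are poorly determined.

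The other genes of these pathways were taken from 6 lists of 82 genes, of which edgeR called 0. Beside the counts below, 47.7% of all genes tested had a log2 fold change above 0. At an unadjusted p under 0.05, 8.33% stood higher and 3.92% lower. Notch ligands and receptors outside the 10 had a median log2 fold change of 0.01 over 5 of 7 that could be tested, and of 0.13 with the 10 libraries. Notch3, the receptor of vascular smooth muscle and pericytes, had 91.6, 127 and 199 CPM as lowest, median and highest in TNTProx1, against 111, 114 and 140 CPM in TNTSham, and a log2 fold change of 0.22 ± 0.16 (SE) with 13 libraries and 0.09 ± 0.16 (SE) with 10. On the same scale Dll1, a further delta-type ligand, stood at 0.21 ± 0.12 (SE) with 13 and 0.05 ± 0.11 (SE) with 10. Genes for the processing, modification or turnover of Notch proteins had a median of 0.14, with 16 of 18 above 0. Among the 18, 3 stood higher at an unadjusted p under 0.05, and the median was 0.04 with the 10 libraries. Furin, the protease that cleaves the receptor during its maturation, stood at 0.43 ± 0.14 on the log2 scale (SE; adjusted p = 0.223 in edgeR), and the glycosyltransferase Rfng at 0.25 ± 0.11 (SE). With the 10 libraries these were 0.20 ± 0.14 and 0.13 ± 0.13 (SE).

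Nuclear effectors and further targets had a median of 0.05 over 13 of 14 genes, with 2 higher and 1 lower at an unadjusted p under 0.05, and a median of 0.17 with the 10 libraries. Dtx4, a ubiquitin ligase of the deltex family, stood at 0.45 ± 0.13 (SE; adjusted p = 0.165 in edgeR) and Maml1, a coactivator of the RBPJ complex, at 0.29 ± 0.09 (SE; adjusted p = 0.188 in edgeR). Rbpj itself had 0.05 ± 0.11 (SE) with 13 libraries and 0.26 ± 0.09 (SE) with 10. The target Hes1 had 0.27 ± 0.20 (SE) with 13 and -0.26 ± 0.15 (SE) with 10, and both genes were picked after their values were seen. Other ephrins and Eph receptors had a median of 0.14 over 17 genes, 2 of them higher at an unadjusted p under 0.05, but with the 10 libraries the median was -0.06, so its sign turned. Those 2 were Ephb2 and Ephb1, receptors of the same class as Ephb4, at 0.43 ± 0.14 and 0.67 ± 0.24 (SE; adjusted p = 0.193 and 0.263 in edgeR). Median log2 fold changes of all genes tested were -0.017 with 13 libraries and -0.001 with 10. Of these genes, 8.33% stood higher and 3.92% lower at an unadjusted p under 0.05 with 13 libraries.

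**Figure D5:**
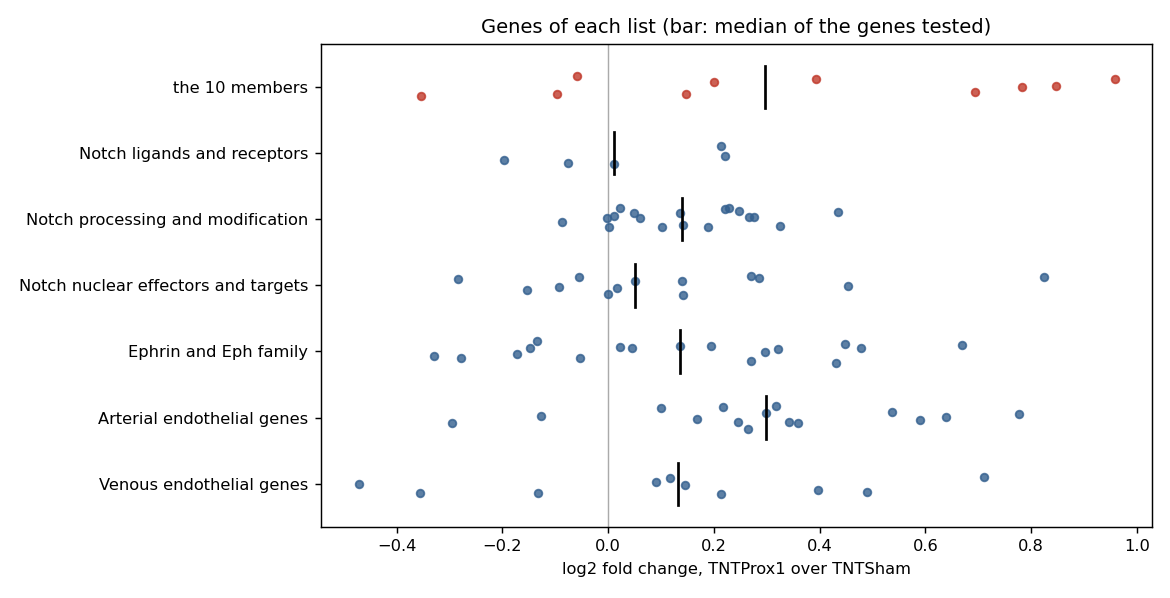
Log2 fold change, TNTProx1 over TNTSham, of the 10 members (red) and of the tested genes of 6 pathway lists (blue), one point per gene, with the median of each list as a bar. Medians run from 0.01 for the other Notch ligands and receptors to 0.30 for the members and for other arterial endothelial genes.

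Arterial endothelial genes outside the 10 had a median log2 fold change of 0.30, where 13 of 15 lay above 0 and 6 stood higher at an unadjusted p under 0.05, and a median of 0.36 with the 10 libraries. Cxcr4, a chemokine receptor of arterial and tip endothelium that leukocytes also carry, stood at 0.78 ± 0.21 (SE; adjusted p = 0.145 in edgeR) and was called by DESeq2 (adjusted p = 0.0395). Unc5b, a netrin receptor of arteries and tip cells, had 0.54 ± 0.15 (SE; adjusted p = 0.151 in edgeR). Venous endothelial genes had a median of 0.13 over 10 of 11 genes, with 7 above 0, 3 below it and 3 higher at an unadjusted p under 0.05. With the 10 libraries the venous median was 0.30, near the arterial one. Aplnr, the apelin receptor, stood at 0.71 ± 0.15 and Emcn, a sialomucin of veins and capillaries, at 0.49 ± 0.12 (SE; adjusted p = 0.104 and 0.131 in edgeR), and DESeq2 called both (adjusted p = 0.00545 and 0.0205). Emcn is also one of the 14 pan-endothelial genes. Whether the arterial and venous lists differ was not tested. Of all genes tested with 13 libraries, 47.7% lay above 0 and 8.33% stood higher at an unadjusted p under 0.05. DESeq2 called 2.08% of genes as higher.

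Genes whose log2 CPM ran most like that of Efnb2 over the 13 samples, among 14292 ranked, were Egflam, Ptprf, Atp2c2 and March9, at Spearman correlations of 0.85 to 0.87. Over the 7 TNTSham libraries their values were 0.86 to 0.89, and over the 10 libraries 0.85 to 0.90. For Ephb4 they were Irf2bpl, Inpp5a, Slc19a1 and Spry2, at 0.96 to 0.97 over 13 samples. Over the TNTSham libraries these 4 had 0.79 to 0.96, and over the 10 libraries 0.93 to 0.95. They are the highest of as many correlations as genes ranked, over samples that share library sets and depth, and are given as a description.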

How the data were processed

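The authors deposited raw counts per gene for 13 samples. The submitters' processing notes name fastp 0.20.1, HISAT2 2.2.1, featureCounts of Subread 2.0.2, DESeq2 1.34.0, R 4.1.2 and the build GRCm39. Libraries were ribosome-depleted, stranded and paired-end, per the labels' protocols. The strand setting, annotation release and handling of multiply aligned reads were not given in the sources used here. Of the members, Notch1 shares 1068 and 414 exonic bases with 2 antisense transcripts (at most 71 counts), Dll4 shares 214 (at most 35) and Ephb4 shares 33 with Zan (at most 57). If strand was not used in counting, those reads cannot be told apart. Of 55357 identifiers 52081 matched GENCODE M21, which is built on GRCm38 and was used for symbols, exon lengths and overlaps. Motifs were searched in RefSeq promoters of GRCm38.p6.

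Counts were scaled by TMM and tested with the quasi-likelihood F test of edgeR 4.0.16 (R 4.3.3) on genes kept by filterByExpr, group as the only term, with Benjamini-Hochberg adjustment over all genes and a threshold of 0.05. The biological coefficient of variation was 0.362. The Efnb2 to Ephb4 ratio was tested by exact permutation of log2 ratios with 0.5 CPM added to each gene (scipy 1.17.1). Alternatives were DESeq2 1.42.0, limma 3.58.1 voom with quality weights, other scalings and filters, 2 covariates, leaving out TNTProx1 4 to 6, and each library in turn. Data were simulated for 22876 genes, with 50 genes changed by each fold, raised and lowered in turn. At folds of 1.5, 2, 3 and 4 edgeR called 9, 21, 30 and 41 of them. DESeq2 called 18, 30, 39 and 46, and voom called 9, 21, 30 and 40. Calls of genes left unaltered numbered 2 in edgeR, 39 in DESeq2 and 4 in voom. The simulation gave all libraries of a group the same means, so no library stood apart as TNTProx1 4 to 6 did. Its counts therefore need not carry over to the real libraries. Intervals cover the spread between libraries as the model fits it.

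The members, the lists and the tests were chosen with earlier results of these data known. Genes named are the 10 members, Prox1, Pecam1, Cdh5, Notch3, the called genes of each pathway list or, where none was called, the 2 of smallest p, and the 4 genes most like Efnb2 and Ephb4 with a mean log2 CPM above 2. Rbpj, Hes1, Des, Cnn1, Tagln and Myh11 fall outside this rule and were named after their values were seen.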

Additional observations from a re-analysis of the deposited data

Results flagged for a closer look

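In 56 groups of values checked for a sample far from its group, 3 were found, where chance gives about 1 group in 20. Efnb2 stood at 62.1 CPM in TNTProx1 2, against 99.5 to 117 CPM in the other TNTProx1 libraries. Notch3 stood at 140 CPM in TNTSham 5, against 111 to 116 CPM in the other TNTSham libraries. The sum of 7 macrophage markers was 1400 CPM in TNTSham 1, against 798 to 893 CPM in the other TNTSham libraries.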

How the results depend on the processing

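The count of genes called over all 13 libraries was 0 in edgeR, 1 without the low-count filter, 560 with the DESeq2 Wald test and 573 with limma voom and quality weights, and it ranged from 0 to 589 when 1 library was left out, with 589 without TNTProx1 1 and 34 without TNTSham 5. Members called numbered 0 in edgeR, 3 with the DESeq2 Wald test, 3 with limma voom and quality weights, and 0 to 1 when 1 library was left out. With 10 libraries edgeR called 0 genes, with 5116 at an unadjusted p under 0.05. The difference in the Efnb2 to Ephb4 log2 ratio was -0.457 with the 10 libraries (exact permutation p = 0.1), where 3 against 7 samples leave few splits, and -0.557 to -0.335 when 1 library was left out. It kept its direction and its side of 0.05 under the other pseudocounts, and a ratio within a library cannot move with library scaling.

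The sign turned for 6 members. With the pan-endothelial score as a covariate it did so for Efnb2 (0.22), Notch1 (0.12), Notch4 (-0.11), Dll4 (-0.18) and Hey2 (-0.22). With the keratinocyte score it turned for Efnb2 (0.057), with limma voom for Notch1 (0.018) and Jag2 (-0.015), with the 10 libraries for Jag2 (-0.30), and without TNTProx1 2 for Efnb2 (0.044). The cause was not tested. Ephb4, Jag1, Hey1 and Heyl kept their sign in every alternative, with Heyl at 0.004 beside the pan-endothelial score. No paired analysis was possible because the labels give the groups no shared replicate numbers. Depth limits Hey1 and Hey2 most, at 78 to 262 and 88 to 207 counts per library.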

Other observations

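Markers of other cell types that also use these genes were summed as values, and their part in the results was not tested. Smooth muscle and pericyte markers, a class that holds Notch3, summed to 1120 to 2080 CPM in TNTProx1 and 1090 to 1480 CPM in TNTSham. With 13 libraries 10 of 11 were higher and 0 called. The sums were 1120 to 1460 CPM in TNTProx1 1 to 3, within the TNTSham range, and 1360 to 2080 CPM in TNTProx1 4 to 6. With the 10 libraries the log2 fold changes of Des, Cnn1, Tagln and Myh11 lay below 0, and those of the other markers of this class above 0. Osteoclast markers summed to 1010 to 2130 CPM in TNTProx1 and 438 to 1020 CPM in TNTSham, with 7 of 7 higher and 0 called, and osteoblast and cartilage markers to 599 to 1360 CPM and 257 to 902 CPM in the same groups. In mouse bone, osteoclasts carry Efnb2 and osteoblasts Ephb4. Skeletal muscle markers summed to 4370 to 11800 CPM in TNTProx1 and 9250 to 15900 CPM in TNTSham, with 1 of 10 higher. Lymphatic endothelial markers, the other vessel class that carries Ephb4, summed to 433 to 987 CPM in TNTProx1 and 415 to 534 CPM in TNTSham, with 9 of 9 higher and 0 called. Fibroblast markers summed to 44100 to 119000 CPM in TNTProx1 and 32800 to 58800 CPM in TNTSham, with 7 of 7 higher. Macrophage markers were also higher in 7 of 7, T cell markers in 1 of 6, and adipocyte and Schwann cell markers in 2 of 5 each. Of all genes tested, 47.7% were higher.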
